A study of Mus musculus with 8 samples.

Results

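Rab GTPases are small GTP-binding proteins that label the membranes of the secretory and endocytic routes. The genes described here are the 59 protein-coding genes of the mouse RefSeq table whose symbol is Rab, a number and at most 1 letter from a to d, out of 21779 protein-coding genes used. ChIP-seq for Smad4, the partner of the receptor-regulated SMAD proteins in TGF-β and BMP signalling, was done on CD4+ T cells of C57BL/6 mice, taken from lymph nodes together with spleen. All groups were activated and treated alike, with IL6 (interleukin 6) plus an inhibitor of the TGF-β receptor (TGFbR), and were fixed at 12 h. The wild-type (WT) group had 2 ChIP libraries, both labelled female. The knockout (KO) group, CD4cre;Smad4fl/fl, had 2, replicate 1 from pooled males and females and replicate 2 from males. In the KO a Cre transgene under Cd4 control deletes the floxed Smad4 gene in T cells, so the KO libraries show what the antibody recovers from cells meant to lack the protein. Sex and genotype differ together between the groups and cannot be told apart. The 4 input samples were not analysed here, ages are not given, and whether each replicate is another animal is not in the labels.

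A Rab protein is loaded with GTP by an exchange factor, recruits effectors such as tethers and motors while GTP is bound, and is switched off by a GTPase-activating protein (GAP). A lipid anchor added by the Rab geranylgeranyl transferase holds it in the membrane, and GDP dissociation inhibitors carry it between membranes. In T cells, Rab4, Rab5, Rab11 and Rab35 proteins are known for recycling of the antigen receptor to the immune synapse, and Rab27a for release of lytic granules.

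Each library was represented by a list of peak positions on mm10, with no height or score, so a gene either has a peak in a list or has none. WT replicates 1 and 2 had 27120 and 19792 peaks, and KO replicates 1 and 2 had 564 and 424. Read depth is unknown, and differences in peak number may follow depth as well as binding. Reproducible WT regions were made by merging peaks of the WT lists that overlapped, if only by 1 bp, and came from both lists, and a WT-only region is one that met no KO peak. The territory of a gene is its body and 10 kb on both sides, and a gene end is the 1 kb on either side of its start or end coordinate. The labelled cell type was compared with the peaks at marker genes: all 10 T cell genes (Cd3e, Cd4 and Bcl11b among them) had a WT-only region, against 2 of 5 B cell genes (Cd79a and Pax5) and 0 of 5 myeloid genes. Peaks at a gene do not measure its expression.

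WT-only Smad4 regions were found in the territories of 39 of the 59 Rab genes (66.1%, exact 95% interval 52.6% to 77.9%), against 44.3% of all protein-coding genes. A reproducible WT region, whatever the KO lists held, was likewise found at 39 of the 59 genes (all genes 44.8%). Rab genes are somewhat longer than other genes, with a median body of 23.2 kb against 17.2 kb. Standardised to the members by 10 groups of territory length, the share of all genes was 49.8%, which corresponds to 29.4 of 59 genes. The intervals cover counting error only. All genes were not matched on activity in T cells, so these counts do not set Rab genes apart from active genes.

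At gene ends, 28 of the 59 genes (47.5%, interval 34.3% to 60.9%) had a WT-only region, against 29.4% of all protein-coding genes and 33.6% after standardising by length. Of the 48 members with a transcription start in the RefSeq promoter table, 22 (45.8%, interval 31.4% to 60.8%) had a WT-only region over a listed start, against 26.9% of the 17492 coding genes with an entry. The members' shares lay above those of all genes by all 3 rules, which count many of the same regions and are not separate results. Members had 2.09 WT-only regions per 100 kb of territory and all genes 1.22. Rab8b alone held 9 of the members' 69 regions, and without it the density was 1.88. The densities were not standardised by length. Genes with 3 or more WT-only regions made up 8.47% of the members and 8.32% of all genes, so the members showed no excess of such genes.

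**Figure D1:**
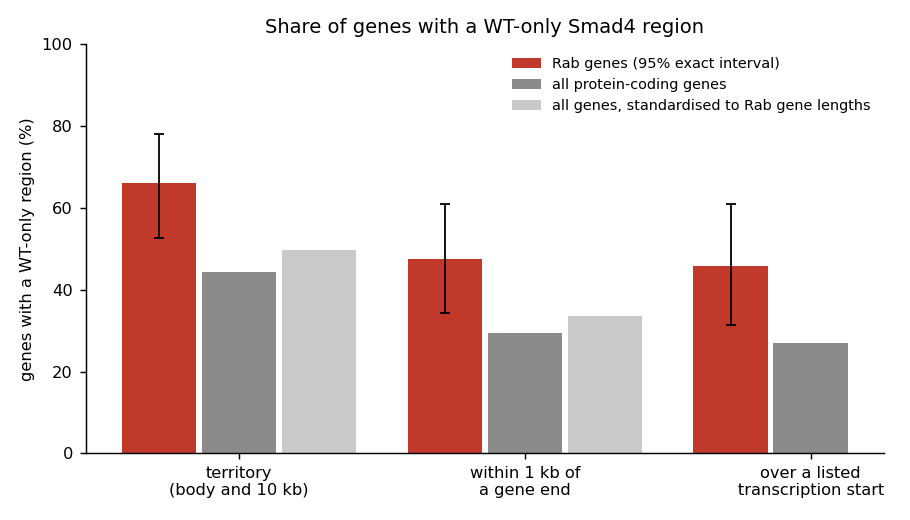
Percentage of genes that held a WT-only Smad4 region (vertical axis) by 3 rules for where the region lies. Red bars are the Rab genes with exact 95% intervals, dark bars all protein-coding genes and light bars all genes standardised to Rab gene lengths, which was not computed for starts. In the territory the shares were 66.1%, 44.3% and 49.8%.

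The counts were also taken by gene length, with no test between the classes. Of the members with a body of up to 10 kb, 7 of 10 had a WT-only region in the territory, against 31.3% of all such genes, but only 3 of these 10 had it at a gene end, against 20.6%. Between 10 and 25 kb, 13 of 22 were bound in the territory (all genes 47.6%) and 10 of 22 at a gene end (33.0%). Between 25 and 50 kb, 11 of 14 were bound in the territory (all genes 55.2%) and 9 of 14 at a gene end (37.7%). Above 50 kb the counts were 8 of 13 (53.5%) and 6 of 13 (33.2%). In the shortest class, 4 of the 7 genes were thus bound only away from the gene's ends.

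The other 20 Rab genes fell into 2 sets. In 13 no peak of any list lay in the territory: Rab1b, Rab3b, Rab3d, Rab4a, Rab9, Rab9b, Rab15, Rab27b, Rab32, Rab33a, Rab36, Rab38 and Rab39b. These include all 4 members on the X chromosome (Rab9, Rab9b, Rab33a and Rab39b). Over the whole X chromosome, 18.1% of coding genes held a WT-only region. In the other 7 (Rab5c, Rab6b, Rab7b, Rab11a, Rab26, Rab30 and Rab44) a peak was called in a single WT list.

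By library, WT replicate 1 had a peak in the territory of 44 members (all genes 53.5%) and WT replicate 2 of 41 (all genes 48.5%). KO replicate 1 had a peak at 0 members (all genes 1.87%) and KO replicate 2 at 1 (all genes 1.16%). In number of peaks this was 111 and 77 in WT against 0 and 1 in KO, a mean of 94.0 ± 24 (SD, n = 2) against 0.5 ± 0.707 (SD, n = 2). The groups did not overlap, either in members with a peak or in peaks, and a 2-sided exact permutation test gave p = 0.333 for each, the smallest that 2 against 2 allows. Pooled by group, the ratio of 188 WT peaks to 1 KO peak was 188 (95% counting interval 33.3 to 7465). That interval treats peaks as independent, although 70 regions were called in both WT lists, and leaves out the spread between libraries. The ratio of geometric means of the counts plus 1 was 66.1 in Rab territories and 47.3 for the whole lists.

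The near absence of KO peaks at Rab genes has to be read against the short KO lists. Rab territories took 0.409% of all peaks of WT replicate 1 and 0.389% of those of WT replicate 2. In KO replicate 1, 0 of 564 peaks allows a share of up to 0.532% by 3 counts of the total, or 0.652% by the exact interval. In KO replicate 2 the share was 0.236% (exact interval 0.00597% to 1.31%). A difference from WT in the share of peaks that fall on Rab genes was therefore not detectable at this number of peaks.

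**Figure D2:**
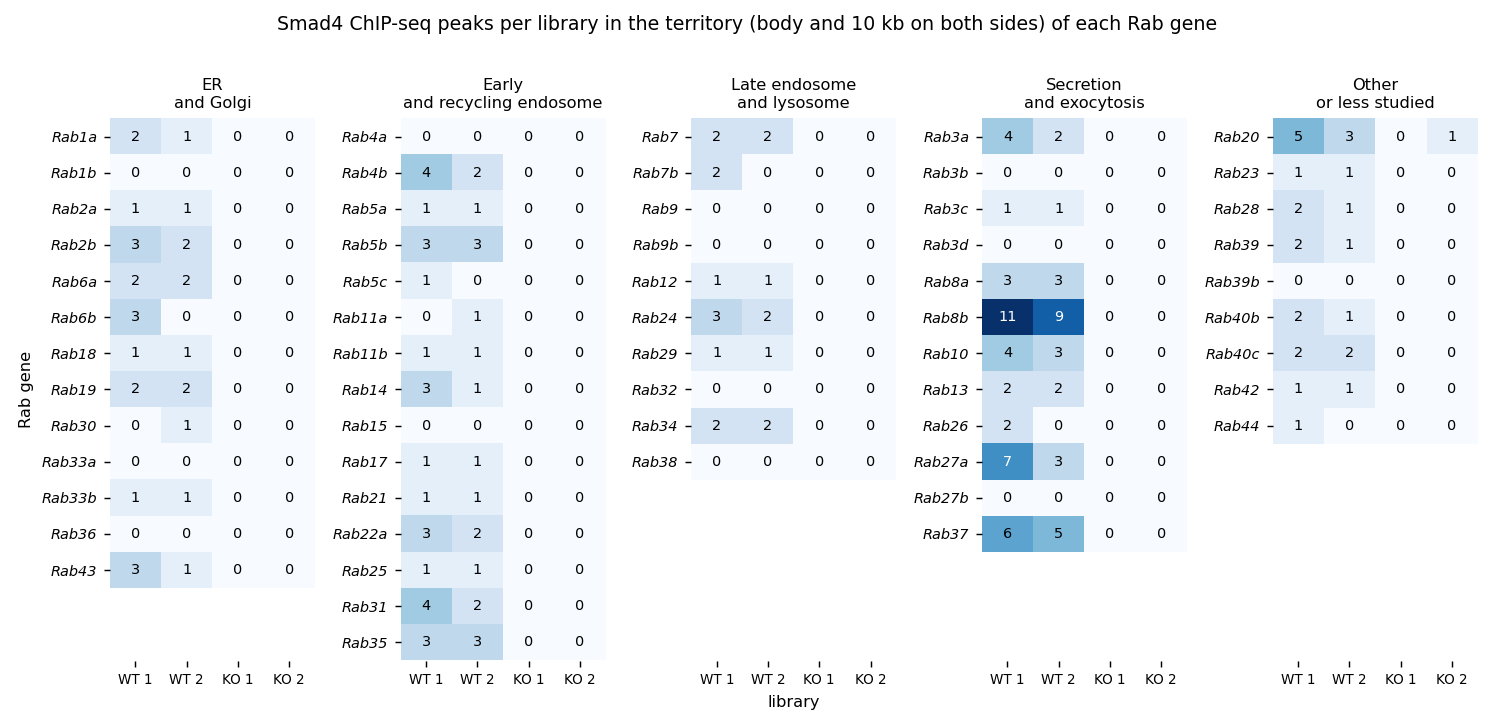
Number of Smad4 peaks in the territory of each of the 59 Rab genes (rows, by the main compartment of the protein) in each of the 4 libraries (columns), with darker cells for more peaks. Rab8b has the highest numbers, 11 and 9 in the WT libraries, and the only KO peak stands at Rab20.

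In 5 Rab genes taken as examples a WT-only region lay over the start, while Rab1b, the close relative of Rab1a, had none. The sequences before these 6 starts are shown. Each is the 250 bases before the listed start, read 5′ to 3′ on the gene's strand, from RefSeq on GRCm38.p6. Capitals mark matches on either strand to the SMAD box CAGAC, the palindromic SMAD site GTCTAGAC, the AP-1 site TGANTCA, the ETS site CCGGAAG and the CRE core TGACGT, which was added after the sequences were seen. The WT-only regions cover all 250 bases in Rab27a, Rab8a, Rab5a and Rab1a, 78 bases nearest the start in Rab8b, and 0 in Rab1b.
Rab8b (chr9:66919706-66919955, minus strand): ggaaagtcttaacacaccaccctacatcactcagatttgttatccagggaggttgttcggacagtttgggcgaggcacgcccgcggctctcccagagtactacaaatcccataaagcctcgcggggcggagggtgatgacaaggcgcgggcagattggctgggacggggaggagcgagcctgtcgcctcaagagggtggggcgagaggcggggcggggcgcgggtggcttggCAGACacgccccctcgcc
Rab27a (chr9:73044560-73044809, plus strand): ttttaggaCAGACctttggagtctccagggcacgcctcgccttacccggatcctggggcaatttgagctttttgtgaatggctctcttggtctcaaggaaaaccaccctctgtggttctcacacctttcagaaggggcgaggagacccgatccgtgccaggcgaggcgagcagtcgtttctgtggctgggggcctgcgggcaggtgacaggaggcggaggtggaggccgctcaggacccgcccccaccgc
Rab8a (chr8:72160950-72161199, plus strand): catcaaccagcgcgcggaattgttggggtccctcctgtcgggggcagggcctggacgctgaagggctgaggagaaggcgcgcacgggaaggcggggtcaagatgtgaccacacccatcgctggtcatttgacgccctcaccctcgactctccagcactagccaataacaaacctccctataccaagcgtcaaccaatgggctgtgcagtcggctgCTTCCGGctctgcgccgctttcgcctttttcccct
Rab5a (chr17:53478984-53479233, plus strand): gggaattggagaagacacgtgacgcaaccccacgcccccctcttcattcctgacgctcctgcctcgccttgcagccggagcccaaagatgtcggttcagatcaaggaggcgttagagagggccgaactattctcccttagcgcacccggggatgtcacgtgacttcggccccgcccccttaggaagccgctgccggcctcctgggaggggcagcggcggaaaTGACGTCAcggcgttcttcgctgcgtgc
Rab1a (chr11:20201162-20201411, plus strand): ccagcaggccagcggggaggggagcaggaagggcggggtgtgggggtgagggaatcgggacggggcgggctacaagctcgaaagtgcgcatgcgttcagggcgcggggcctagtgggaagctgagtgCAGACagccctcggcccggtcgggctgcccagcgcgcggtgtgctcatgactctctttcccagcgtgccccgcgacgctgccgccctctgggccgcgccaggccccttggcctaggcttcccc
Rab1b (chr19:5106997-5107246, minus strand): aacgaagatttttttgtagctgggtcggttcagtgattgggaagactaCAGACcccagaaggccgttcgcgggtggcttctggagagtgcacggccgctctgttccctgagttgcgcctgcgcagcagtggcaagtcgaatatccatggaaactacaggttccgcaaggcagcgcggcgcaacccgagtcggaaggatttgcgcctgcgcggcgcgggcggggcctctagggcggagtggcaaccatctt

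Each of the Rab8b, Rab27a and Rab1a sequences holds 1 SMAD box, and so does the Rab1b sequence, which had no peak in any list. The Rab8a sequence holds 1 ETS site. The Rab5a sequence holds 2 overlapping matches to the CRE core, from the same 8 bases read on both strands. The listed windows of 300 bases (250 before and 50 after the start) were then searched for all members with an entry.

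A WT-only region met 24 of the members' 60 listed windows, which belong to 23 of the 48 genes (all genes 28.1%). The SMAD box stood in 10 of these 24 windows (41.7%) and in 19 of the other 36 (52.8%), against 48.4% of all 21263 windows of coding genes. The palindromic SMAD site stood in 1 member window, at a start of Rab15 without a peak, and in 0.226% of all windows. The AP-1 site was found in 0 of the 24 windows and 3 of the 36, against 6.99% of all. None of these 3 motifs was more frequent in the member windows under a region than in the others, but the palindromic site rests on 1 window. Over all coding genes the palindromic site stood in 0.368% of the windows under a WT-only region and 0.174% of the rest. For the SMAD box these shares were 47.0% and 48.9%, and for the AP-1 site 4.03% and 8.07%.

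The ETS site stood in 2 of the 24 windows (8.33%), at Rab8a and Rab24, and in 3 of the 36 (8.33%). Over all coding genes it stood in 23.7% of the 5707 windows under a WT-only region and in 7.11% of the rest. The CRE core stood in 4 of the 24 (16.7%; Rab5a, Rab6a, Rab11b and Rab21) and 3 of the 36 (8.33%), against 8.49% of all windows. Over all coding genes it stood in 14.9% of the windows under a WT-only region and in 6.13% of the rest, so the members' difference is not particular to Rab genes. Windows under a region were richer in CG dinucleotides: a median of 26.5 against 16.0 in the other member windows. The same held over all coding genes, with medians of 25 and 7. All 60 member windows had a median of 19.5 and all windows of coding genes 13.0. A match to a motif describes the sequence and is not a binding site.

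The 69 WT-only regions of the Rab genes were sorted by the position of their centre. Of these, 28 (40.6%, interval 28.9% to 53.1%) lay at a gene end of the member, 19 (27.5%) elsewhere inside it, and 22 (31.9%) in the 10 kb outside. Over all coding genes these shares were 34.8%, 34.8% and 30.4%, within the members' intervals. Of the 25 gene-end regions in members with known strand, 24 were at the start and 1, at Rab20, at the 3′ end. Over all genes with an entry, 93.1% of such regions were at the start.

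Neighbouring genes share part of these regions. Of the 22 outside regions, 13 lay at an end of another coding gene, 3 elsewhere inside one and 6 outside all coding genes. Of the 28 gene-end regions, 7 lay also at an end of a neighbour, such as the region between Rab13 and the ribosomal protein gene Rps27 and that between Rab6a and Mrpl48. At 8 of the 39 genes no region had the member as its nearest coding gene. At Rab13, Rab24 and Rab2b, 3 of these 8, a region nevertheless spanned the Rab start. At Rab25, Rab34, Rab3a, Rab40b and Rab42 all regions lay outside the gene.

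**Figure D3:**
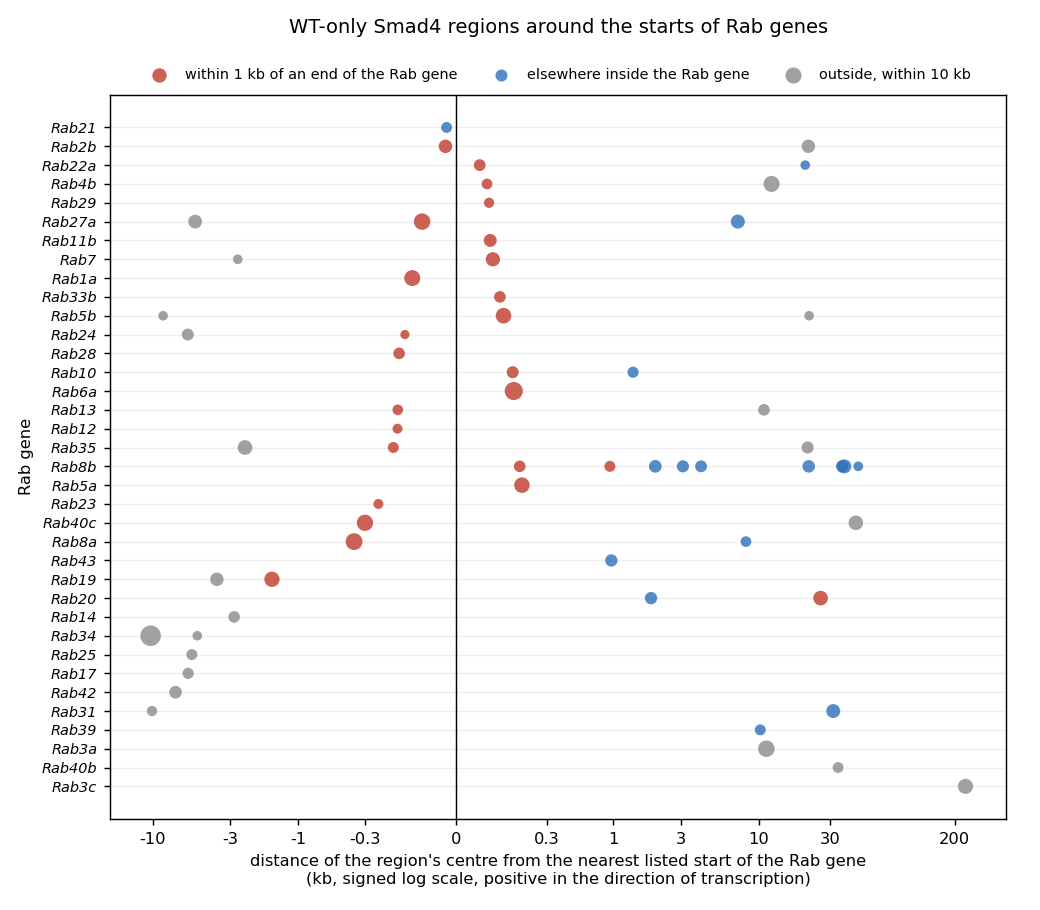
Position of the WT-only regions of the 36 members that have a region and a listed start (rows), as the distance of the region's centre from the nearest listed start (horizontal axis, kb, signed log scale), with larger points for wider peaks. Points near 0 form the main column, and the row of Rab8b extends 46.0 kb into the gene.

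Rab genes of the secretory and exocytic route had a WT-only region in 8 of 12 cases (all genes 44.3%) and at a gene end in 6 (all genes 29.4%). Their bodies are long, with a median of 57.7 kb, and 53.5% of all genes over 50 kb had a WT-only region. Rab8b, whose product acts in transport from the Golgi and recycling endosomes to the plasma membrane, held the most regions of all members. Its territory (body at chromosome 9, 66843609 to 66919705) had 11 and 9 peaks in the WT replicates and 0 in both KO libraries. These gave 9 WT-only regions, all inside the gene or at its start. The region at 66919296 to 66919783 spanned the start, and 4 others followed within 4.10 kb. The other 4 lay between 21.6 and 46.0 kb into the gene. They were of moderate width: the widest, at 66882151 to 66882934, had peaks of 754 bp and 748 bp in WT replicates 1 and 2.

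Rab8a, the closest relative of Rab8b, had 3 peaks in each WT library and 0 in each KO library. Its region over the start (chromosome 8, 72160113 to 72161544) was wider than any at Rab8b, with peaks of 1432 bp and 876 bp in WT replicates 1 and 2. A second region lay 8.22 kb into the gene. Both Rab8 genes thus had a region over the start and at least 1 inside the body.

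Rab27a, needed for the release of lytic granules, had 7 peaks in WT replicate 1, 3 in WT replicate 2 and 0 in both KO libraries. Its region over the start (chromosome 9, 73044181 to 73045305) had peaks of 1096 bp and 1100 bp, nearly equal in the WT libraries. A second region lay inside the gene (73070935 to 73071871), 7.25 kb from an alternative start. The third (73039213 to 73039996) lay at the ends of Pigb and Pigbos1. The other 4 peaks of WT replicate 1, all inside the gene and up to 370 bp wide, had no partner in WT replicate 2.

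Rab27b, the relative of Rab27a in the same secretory pathway, had no peak in any of the 4 libraries, although its body of 163 kb is longer than that of every member but Rab3c. Rab37, linked to granule secretion in mast cells and other leukocytes, had 6 and 5 peaks in WT and 0 in KO. Its 4 WT-only regions lay at 1 side of the gene, 3 inside it and 1 over its end coordinate (chromosome 11, 115162462 to 115163976), with peaks of 1140 bp and 1346 bp. That region was also at an end of Slc9a3r1, which encodes a scaffold protein of the cell cortex.

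Rab10 and Rab13, both known for transport to the plasma membrane, had a WT-only region over the start. At Rab10 a second region followed 1.39 kb into the gene. The Rab3 group serves regulated secretion, best known from synapses. Rab3a had 4 and 2 peaks in WT, but its only WT-only region (chromosome 8, 70765563 to 70767158; peaks of 1596 bp and 624 bp) lay at Ifi30, 6.96 kb from the Rab gene. The region of Rab3c lay 9.54 kb beyond its 3′ end, 236 kb from its start. Rab3b and Rab3d had no peak in any library, and Rab26 had 2 peaks, both in WT replicate 1. None of the 4 Rab3 genes had a WT-only region at a gene end.

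Early and recycling endosome genes had a WT-only region in 11 of 15 cases, against 44.3% of all genes. At a gene end it was 6 of 15, against 29.4% (Rab4b, Rab5a, Rab5b, Rab11b, Rab22a and Rab35). Rab5a, which controls fusion of early endosomes, had 1 peak in each WT library and 0 in each KO library. These peaks, 878 bp and 1038 bp wide, formed a region over its start (chromosome 17, 53478856 to 53479960). Rab5b had 3 peaks in each WT library and a region of similar width over the start, with peaks of 1166 bp and 784 bp, which it shares with Pmel. Rab5c had 1 peak of 562 bp inside the gene, in WT replicate 1 alone. Of the 3 Rab5 genes, Rab5c was thus the one without a reproducible region.

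Rab35, which acts in fast recycling to the plasma membrane, had 3 peaks in each WT library and 0 in KO. Its region over the start (chromosome 5, 115631504 to 115632152) had peaks of 376 bp and 446 bp. A wider region lay 2.38 kb upstream (115629030 to 115630179), with peaks of 1150 bp and 536 bp. The third lay inside the neighbour Bicdl1.

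Rab11a and Rab11b direct slow recycling, and only Rab11b had a WT-only region. It lay over the start (chromosome 17, 33760014 to 33760820), with peaks of 582 bp and 668 bp. Rab11a had 0 peaks in WT replicate 1, 1 of 386 bp over its start in WT replicate 2, and 0 in KO. The Rab11a window was the member window with the most ETS matches, 4. Rab4a had no peak in any library, while Rab4b had 4 and 2 in WT, with a region over its start (peaks of 306 bp and 460 bp) and a wider one at the neighbour Egln2 (1080 bp and 986 bp).

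Among the rest of this set, Rab22a had a region over the start and a second 20.4 kb into the gene. Rab21 had its region over an alternative start inside the annotated body (peaks of 424 bp and 378 bp). Rab14 had a region 2.83 kb upstream in both WT libraries, while the peak of 588 bp over its start was called in WT replicate 1 alone. Rab31 was similar, with a peak of 422 bp over its start in WT replicate 1 alone and reproducible regions 31.4 kb into the gene and at the neighbour Ppp4r1. The region of Rab17 lay 5.80 kb upstream and that of Rab25 at the neighbours Lamtor2 and Ubqln4. Rab15 had no peak.

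Late endosome and lysosome genes had a WT-only region in 5 of 10 cases, near the 44.3% of all genes. At a gene end it was 4 of 10, against 29.4% (Rab7, Rab12, Rab24 and Rab29). Rab7, the central regulator of late endosomes, had 2 peaks in each WT library and 0 in KO. The region over its start (chromosome 6, 88044761 to 88045626) had peaks of 828 bp and 734 bp, and a narrower one lay 2.67 kb upstream. Rab7b had 2 peaks of 308 bp and 304 bp inside the gene, both in WT replicate 1. Regions at Rab12, Rab24 and Rab29 were narrow, with peaks between 240 bp and 366 bp over the start. The smallest peak width in the lists was 240 bp in WT replicate 1 and 242 bp in WT replicate 2.

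The widest WT-only region in any Rab territory stood in that of Rab34 (chromosome 11, 78176942 to 78179205), with peaks of 2264 bp and 1306 bp. It lay 9.22 kb from Rab34, inside Tlcd1, and the second region of this gene lay at the ribosomal protein gene Rpl23a. Rab34 itself had no peak at its ends. Rab32 and Rab38, known from melanosomes and other lysosome-related organelles, and the X-linked Rab9 and Rab9b had no peak.

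ER and Golgi genes had a WT-only region in 8 of 13 cases (all genes 44.3%), and all 8 had one at a gene end (all genes 29.4%). Rab1a, which acts in transport from the endoplasmic reticulum to the Golgi, had 2 peaks in WT replicate 1, 1 in WT replicate 2 and 0 in KO. Its region over the start (chromosome 11, 20200770 to 20201865) had peaks of 1096 bp and 954 bp. Rab1b had no peak in any library. Rab6a, which acts at the Golgi, had 2 peaks in each WT library, and its region over the start (chromosome 7, 100606909 to 100608548) was the widest over a listed Rab start, with peaks of 1640 bp and 1070 bp. This region is shared with Mrpl48, a mitochondrial ribosomal protein gene. Rab6b, its relative best known from neurons, had 3 peaks of 240 to 306 bp, all in WT replicate 1.

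Rab2a and Rab2b both had a region at a gene end, with peaks of 1018 bp and 966 bp at Rab2a and 938 bp and 436 bp at Rab2b. The region at an end of Rab18, a gene of lipid droplet and ER membranes, had peaks of 1008 bp and 1018 bp. Rab33b had a region over its start (462 bp and 488 bp), while its X-linked relative Rab33a had no peak. Rab19 was bound 0.366 kb outside the gene (828 bp and 1016 bp) and Rab43 0.971 kb from a listed start (714 bp and 384 bp). Rab30 had 1 peak of 242 bp at a gene end in WT replicate 2, and Rab36 had none.

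Of the 9 other members, 7 had a WT-only region, against 44.3% of all genes, and 4 had it at a gene end, against 29.4% (Rab20, Rab23, Rab28 and Rab40c). Rab20, an endosome and phagosome gene, was the only member with a KO region, against 2.42% of all protein-coding genes. The WT replicates had 5 and 3 peaks there and the KO replicates 0 and 1. The KO peak (chromosome 8, 11464015 to 11464248) was 234 bp wide, the smallest width in its list. It lay inside a WT region of 1040 bp with peaks of 988 bp and 1040 bp, the only reproducible region of any member that was also called in KO. No member had a KO region at a gene end (all genes 0.505%).

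The WT-only regions of Rab20 lay 0.128 kb outside its 3′ end (peaks of 938 bp and 724 bp) and 1.86 kb into the gene (860 bp and 242 bp). Near its start a peak of 240 bp was called in WT replicate 1 alone. Rab40c, part of a Rab branch that joins ubiquitin ligases, had a wide region over its start (chromosome 17, 25919390 to 25920637), with peaks of 898 bp and 1248 bp. Its relative Rab40b had a region 1.37 kb outside the gene, at Wdr45b. Rab28 and Rab23, both linked to cilia, had peaks of 240 to 504 bp over or next to the start. Rab39 had a region 10.3 kb into the gene (558 bp and 242 bp), Rab42 one in its flank, Rab44 a single peak in WT replicate 1 and the X-linked Rab39b none.

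**Figure D4:**
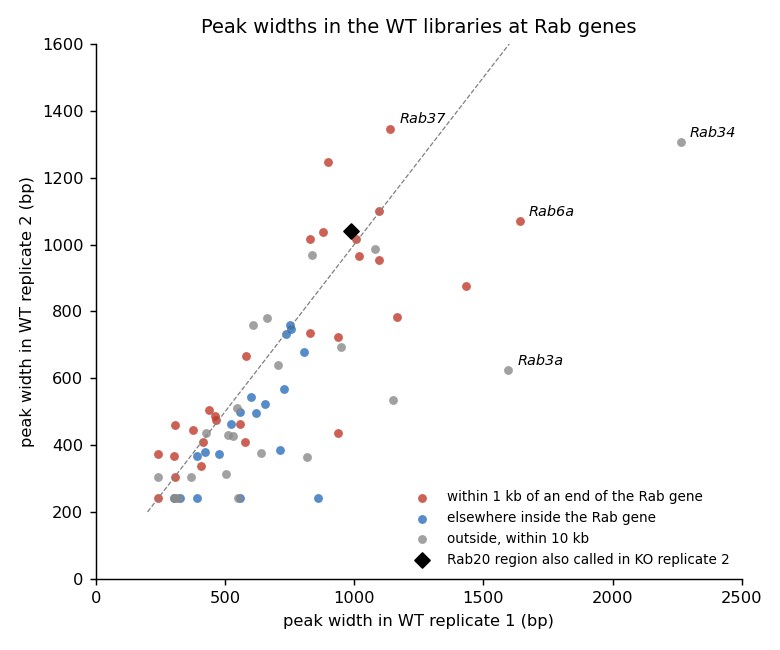
Width of the peaks (bp) in WT replicate 1 (horizontal axis) and WT replicate 2 (vertical axis) in each of the 69 WT-only regions of Rab genes and in the Rab20 region also called in KO. The dashed line marks equal widths. Of the WT-only regions, 48 lie below it, with wider peaks in WT replicate 1, and the points at 242 bp are at the smallest width in WT replicate 2.

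The width of the members' regions did not set them apart from the rest of the genome. WT-only regions of Rab genes had a median width of 648 bp (highest 2264 bp), and all 15882 WT-only regions 644 bp (highest 6725 bp). Within the members' regions the median summed peak width was 602 bp in WT replicate 1 and 488 bp in WT replicate 2. A further 48 merged peaks in Rab territories came from a single WT list, 41 from WT replicate 1 and 7 from WT replicate 2.

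Close relatives often differed in what was called, which is not a test that their binding differed. No unrelated genes were grouped for comparison, and 39 of all 59 members had a WT-only region. Among the 14 groups of Rab genes that share a number, all members had a WT-only region in 3 groups (Rab2, Rab8 and Rab40), none had one in 1 group (Rab9), and the other 10 groups were mixed. The mixed groups were those of Rab1, Rab3, Rab4, Rab5, Rab6, Rab7, Rab11, Rab27, Rab33 and Rab39. In 4 of them (Rab5, Rab6, Rab7 and Rab11) the relative without a WT-only region had a peak in a single WT library. In the other 6 (Rab1, Rab3, Rab4, Rab27, Rab33 and Rab39) the relatives without a region had no peak at all, and in those of Rab33 and Rab39 the relative without a peak is on the X chromosome.

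Genes of the machinery that drives the Rab cycle were described by the same rules. Of 106 such genes, 72 (67.9%, interval 58.2% to 76.7%) had a WT-only region in the territory. The share of all genes was 44.3%, or 52.0% when standardised to the lengths of these genes. At a gene end 46 of the 106 had one, against 29.4% of all genes, not standardised by length. No test compared the lists with each other.

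Of the genes for prenylation and recycling of Rab proteins, 6 of 8 had a WT-only region (75.0%, interval 34.9% to 96.8%), against 43.5% of all genes at their lengths, which lies within the interval. Gdi2, a GDP dissociation inhibitor, had 2 peaks in each WT library, 2 WT-only regions and 0 KO peaks. Rabggta, which encodes the α subunit of the geranylgeranyl transferase, also had 2 peaks in each WT library and 2 WT-only regions. Chml, an escort protein gene, had 1 region. Rabac1 and Rabif had none. Of the exchange factors, 17 of 28 had a WT-only region (60.7%, interval 40.6% to 78.5%), near the 52.7% of all genes at their lengths. Rab3ip (Rabin8, which activates Rab8 proteins) led with 6 regions from 10 and 8 WT peaks. Dennd1b had 4 regions, from 8 and 4 WT peaks.

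GAP genes had a WT-only region in 26 of 32 cases (81.2%, interval 63.6% to 92.8%), the highest share of the 4 lists, against 52.5% of all genes standardised to their lengths. Usp6nl, a GAP gene whose product acts on Rab5, held 9 regions from 14 and 9 WT peaks. Tbc1d30 held 6 and Rabgap1l 5, with 0 KO peaks in all 3 genes. A KO library had a region in 5 GAP genes (Evi5, Tbc1d4, Tbc1d5, Tbc1d10b and Tbc1d16). In all, 7 of the 106 genes had one, against 2.42% of all protein-coding genes, not standardised by length. Effector genes had a WT-only region in 23 of 38 cases (60.5%, interval 43.4% to 76.0%), near the 52.8% of all genes at their lengths. Rab11fip4, which encodes a Rab11 effector, held 8 regions from 11 and 8 WT peaks, and Plekhm1, which encodes a Rab7 effector, and Myo5a, a myosin motor gene, held 3 each. Unc13d, whose product Munc13-4 works with Rab27a, had 1 region.

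**Figure D5:**
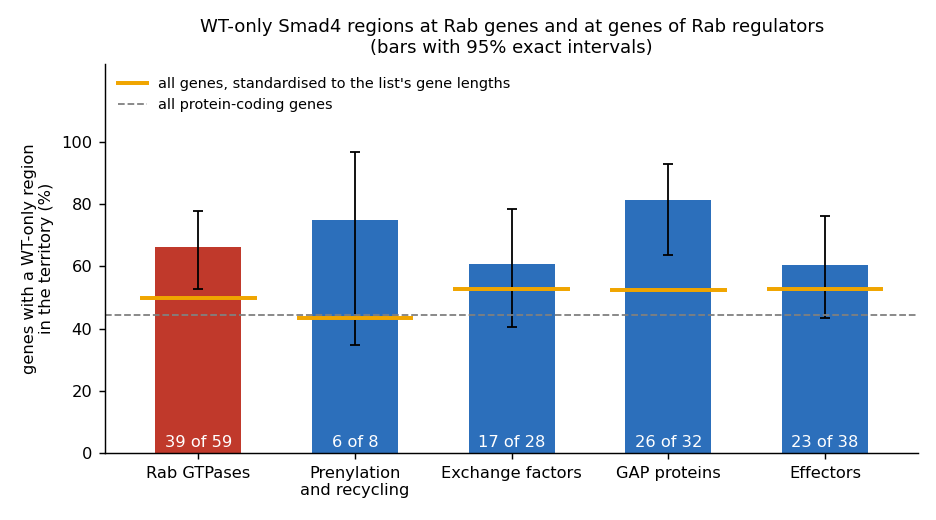
Percentage of each gene list (vertical axis) whose territory held a WT-only region, for the Rab genes (red) and 4 lists of genes that act in the Rab cycle (blue), with exact 95% intervals and counts at the foot of each bar. Yellow marks give the share of all genes at the same lengths and the dashed line all protein-coding genes (44.3%). The GAP genes stand highest, with 26 of 32.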

How the data were processed

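The authors deposited 1 list of peak positions per ChIP library, with chromosome, start and end only. Per the submitters' processing notes, Trim Galore, Bowtie, HOMER 4.8.3 and mm10 were used, with roles not stated. The sources used here do not give thresholds or the use of input. Positions are 1-based. Gene bounds and promoter sequences came from RefSeq tables on GRCm38.p6, the same assembly. Of 21900 coding genes, 121 were left out: their start is below 3 Mb (Y excepted), where the table lists scaffold positions under chromosome names. Starts were matched for 48 of 59 members. No chance test was run beyond the exact permutation test over libraries. As the groups did not overlap, its p-values are set by the number of libraries alone and measure no spread. The assignment code was checked on planted peaks. Members, roles and lists were chosen with earlier results of these data known.

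Genes described were the 8 members with most WT-only regions, the 8 with the widest, all with a KO region, 9 fixed endosome and secretion genes, mixed groups of relatives, and 3 regulators per list, ranked by regions and then by summed peak width. The values of 1 regulator that this rule names are not reported here. Others were chosen after their values were seen. Alternatives covered overlap, territory, gene ends, peak width, chromosomes, pairing and leaving out each library. Scripts ran in Python 3.11.15 with SciPy 1.17.1, pandas 2.3.3, numpy 2.4.6 and matplotlib 3.10.9.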

Additional observations from a re-analysis of the deposited data

How the results depend on the processing

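Of 82 recomputed values, 75 stayed close and 7 moved further. Close means within 1.5 times of the reported count, within its interval or, for WT over KO ratios, on the same side. Only these ratios could reverse, and 0 did, which the few KO peaks made near certain. Member counts on autosomes only could not change, since no X-linked member had a peak. With only the wider peaks of each list, the members with a WT-only region fell to 24 (all genes 29.9%), those with a reproducible WT region to 24, those with a WT-only region at a gene end to 17 (all genes 19.2%) and those with a KO region to 0. All 24 were among the 39. With 50 kb on both sides of the body, 3 members had a KO region. With gene ends of 5 kb, 66.7% of the WT-only regions lay at an end. A wider window cannot lower either value, and the shares over all genes at these 2 settings were not computed. Leaving out 1 KO library gave 0 to 1 members with a KO region, since the single KO peak is in KO replicate 2. Leaving out WT replicate 1 or 2 left a single WT list, so a region no longer had to be in both lists. The members with a WT-only region could then not become fewer, and were 41 or 44 (all genes 48.2% or 53.2%). These equal the counts of members with a peak in the library that was kept. Assignment to the nearest gene gave 32 (all genes 36.7%). With peak centres within 100 bp, 31 members remained (all genes 37.1%), and Rab5a, Rab5b and Rab11b were among the 8 lost.

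The WT and KO libraries share replicate numbers only, with no label tying them to the same animal. The replicate block paired WT and KO by number. With it the members with a WT-only region stayed at 39 and those at a gene end at 28. These counts could not change, either here or when a KO library was left out. Only 1 reproducible region of the members met a KO peak, and its gene, Rab20, holds other WT-only regions. The exact permutation p with the block was 0.5, the smallest that 2 pairs allow. The lists have no score, so a stricter cut could only be made by width, and the number of reads behind a peak is unknown.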
